A study of Mus musculus with 12 samples.

Results

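The heat-inducible Hsp70 and Hsp90 chaperone system was followed through 8 genes, Hspa1a, Hspa1b, Hspa8, Dnajb1, Hsph1, Hsp90aa1, Hsp90ab1 and Hsf1, in isolated adult mouse cardiomyocytes (ACM) with and without desmin. The genes were taken by their symbol, which each occurs in all 12 count files, so that they made up 8 of the 21493 genes listed. All 8 were among the 13158 genes that passed the filter on low counts and were tested. Heat-inducible is a loose name for the group, which also contains the constitutive family members Hspa8 and Hsp90ab1 and the regulator Hsf1.

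Poly-A RNA had been sequenced from ACM freed from hearts by enzymatic perfusion and harvested directly, without culture, from mice of 3 months. There were 4 groups of 3 libraries: Des+/+ mice that had not swum (Des+/+ non-swim), Des+/+ mice after swimming exercise (Des+/+ swim), desmin-null mice that had not swum (Des-/- non-swim) and desmin-null mice after swimming (Des-/- swim). All groups shared the enzymatic isolation, and there was no library from untouched heart tissue. According to the study's methods the cells of several mice went into each library, so a replicate is a pool, and p-values measure the spread between pools. The comparisons of genotype and of swimming share groups, and their values are not independent of each other.

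As background, Hsp70 proteins bind unfolded stretches of other proteins and release them in cycles driven by ATP. J-domain proteins such as Dnajb1 deliver the client and start the ATPase step, and nucleotide exchange factors such as Hsph1 (Hsp110) end it. Hsp90 proteins act later, on nearly folded clients such as kinases and steroid receptors, and take them over from Hsp70 through the adaptor Stip1. The transcription factor HSF1 is held inactive by chaperones in resting cells. Misfolded protein, heat or oxidative stress frees it to bind heat shock elements, inverted repeats of nGAAn, upstream of Hspa1a, Hspa1b, Dnajb1, Hsph1 and Hsp90aa1. In heart muscle, desmin filaments tie the sarcomeres to mitochondria, nucleus and membrane, and the filaments and their partners are clients of small heat shock proteins.

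Hspa1a and Hspa1b, the inducible Hsp70 pair, are neighbouring genes of 1 exon each, on the minus strand of chromosome 17 (GRCm38), at chr17:34969190-34972156 and chr17:34956436-34959238. The sequences before their start sites are shown because they bear on how far the pair can be told apart, and that of Hsph1 because it held the most matches among the members with an entry. Promoter sequence was taken from RefSeq (GRCm38.p6), which had an entry for 4 of the 8 members (Hspa1a, Hspa1b, Dnajb1 and Hsph1). The 250 bases before the start site are written 5′ to 3′ on the strand of the gene, with capitals for the match to a pair of heat shock units, GAANNTTC in Hspa1a (chr17:34972157-34972406, minus strand) and Hspa1b (chr17:34959239-34959488, minus strand) and TTCNNGAA in Hsph1, shown for the more downstream of its 2 RefSeq starts (chr5:149636316-149636565, minus strand).
Hspa1a: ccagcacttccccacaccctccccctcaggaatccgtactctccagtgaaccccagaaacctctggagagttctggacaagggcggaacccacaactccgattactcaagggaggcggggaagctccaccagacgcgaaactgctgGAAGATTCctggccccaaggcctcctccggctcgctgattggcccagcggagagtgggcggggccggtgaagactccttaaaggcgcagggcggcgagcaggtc
Hspa1b: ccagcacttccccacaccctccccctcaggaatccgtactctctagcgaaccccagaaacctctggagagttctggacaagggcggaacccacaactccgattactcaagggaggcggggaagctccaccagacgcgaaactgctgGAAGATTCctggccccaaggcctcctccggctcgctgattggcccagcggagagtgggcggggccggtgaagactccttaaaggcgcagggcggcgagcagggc
Hsph1: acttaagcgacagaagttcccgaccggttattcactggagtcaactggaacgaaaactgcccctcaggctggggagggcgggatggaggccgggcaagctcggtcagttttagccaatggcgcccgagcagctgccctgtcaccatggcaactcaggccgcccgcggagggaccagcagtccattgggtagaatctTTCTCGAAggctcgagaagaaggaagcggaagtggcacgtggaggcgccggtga

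The Hspa1a and Hspa1b stretches differed at 3 of 250 positions, which counted from the 5′ end, with the Hspa1a base first, were C44T, T47C and T249G. Both held the match GAAGATTC from 104 to 97 bases before the start site and a CCAAT box on the other strand from 67 to 63 bases before it. Hsph1 held TTCTCGAA from 54 to 47 bases before its start site. A full run of 3 units (GAA, TTC and GAA, each 2 bases apart) lay on the other strand from 15 to 27 bases after it, as TTCTGGAAAGTTC. Neither entry of Dnajb1 held any of these heat shock matches in its window. Over all 32851 RefSeq mouse promoters, in windows of 250 bases before and 50 bases after the start site and with both strands searched, the 3-unit run was found in 0.603%, TTCNNGAA in 8.52%, GAANNTTC in 7.86% and CCAAT in 37.4%. The 3-unit run overlaps both of the shorter forms, and a match is a string of letters and no evidence of binding.

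The likeness of the pair extends into the transcripts, where it limits the counting. Of the 2868 windows of 100 bases, the read length, in the Hspa1a transcript, 1350 occurred exactly in Hspa1b. Of all Hspa1a windows 51.36% were unique, here meaning found in no annotated transcript of another locus, against 50.07% of the 2704 windows of Hspa1b. Sequence outside annotated transcripts was not searched. A read from the shared stretches aligns to more than 1 place and was not counted, so both genes are under-counted by a share that is the same in every group only if the shared and the unshared stretches are covered alike. Hspa8 (chr9:40800984-40810087, plus strand) kept 36.56% of its windows, because 1342 occurred in the processed copy Gm15459, and Hsp90aa1 (chr12:110690605-110702728, minus strand) kept 52.45%, with 1259 windows in Gm12346. Every window of Dnajb1 (chr8:83608193-83612653, plus strand), Hsph1 (chr5:149614287-149636376, minus strand), Hsp90ab1 (chr17:45567775-45573271, minus strand) and Hsf1 (chr15:76477422-76501913, plus strand) was unique. The share of alignments that were not unique differed between the groups, from 23.37% to 28.49% without swimming and from 29.15% to 36.95% after it, and its part in the levels of Hspa1a, Hspa1b, Hspa8 and Hsp90aa1 was not tested.

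The libraries held between 4320819 and 12072443 reads in genes, and the Des-/- swim libraries were the shallowest, with at most 6521963. Levels are given as counts per 1000000 reads (CPM), scaled with the TMM factors, and a count of 3 corresponded to between 0.2624 and 0.6561 CPM, well under every member's level. Des itself lay between 972.9 and 3647 CPM in the Des+/+ libraries and between 50.29 and 100.5 CPM in the Des-/- libraries, so the labels of genotype held. The share of uniquely aligned reads outside genes was 33.97% to 39.34% in Des+/+ non-swim, 45.87% to 50.39% in Des+/+ swim, 34.16% to 52.32% in Des-/- non-swim and 57.18% to 64.52% in Des-/- swim. Markers of cell types moved with genotype: all 10 cardiomyocyte markers were detected in each group, but their summed level was 68620 to 101500 CPM in Des+/+ non-swim, 32870 to 53780 in Des+/+ swim, 6338 to 30740 in Des-/- non-swim and 15870 to 26860 in Des-/- swim. In bulk RNA, fewer cells of a type and less RNA per cell cannot be told apart. The sum of 4 Y-linked genes lay at 4.06 CPM or less in 5 libraries (Des+/+ non-swim replicate 3 and replicates 1 and 2 of both Des-/- groups) and between 72.72 and 291.6 CPM in the other 7, so the pools also differed in the sex of the mice, unevenly over the groups, and its part in any result was not tested.

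Members differed widely in level. Per 1000 unique windows of transcript, a scale that allows for length and for reads lost to copies elsewhere, Des+/+ non-swim ACM held on average 1051 CPM of Hspa8, the constitutive cytosolic Hsp70, and 1002 CPM of Hsp90ab1, the constitutive Hsp90. The inducible Hsp90aa1 followed with 101.6 CPM, and Hsph1 with 29.86 CPM. Hsf1 (27.69 CPM), Hspa1b (22.01 CPM), Dnajb1 (16.29 CPM) and Hspa1a (14.72 CPM) were the lowest on that scale. For Hspa1a and Hspa1b the CPM of both was also divided by the unique windows of both, which gives an average level of the pair and not their sum. That average came to 1.604% ± 1.048 of Hspa8 in Des+/+ non-swim, 8.874% ± 6.747 in Des+/+ swim, 7.951% ± 3.412 in Des-/- non-swim and 3.808% ± 1.48 in Des-/- swim (SD, n = 3). Per kb of exon, with no allowance for lost reads, the levels of Hspa1a and Hspa1b were added. Their sum was 8.099%, 44.81%, 39.91% and 19.16% of Hspa8. These percentages and those of the average are therefore not the same ratio, and their sizes cannot be compared directly. Per kb, Hsp90ab1 (808.8 CPM per kb) was well above Hspa8 (205 CPM per kb) in Des+/+ non-swim, so the relation of these levels depends on the scale. On both scales constitutive Hspa8 was on average the more abundant Hsp70 transcript in every group. Per unique window Hsp90aa1 came to 9.903% ± 2.984 of Hsp90ab1 in Des+/+ non-swim and to 15.41% ± 1.479, 15.4% ± 4.038 and 14.94% ± 5.617 in the other groups, and per kb to 5.208%, 8.105%, 8.101% and 7.86%.

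**Figure D1:**
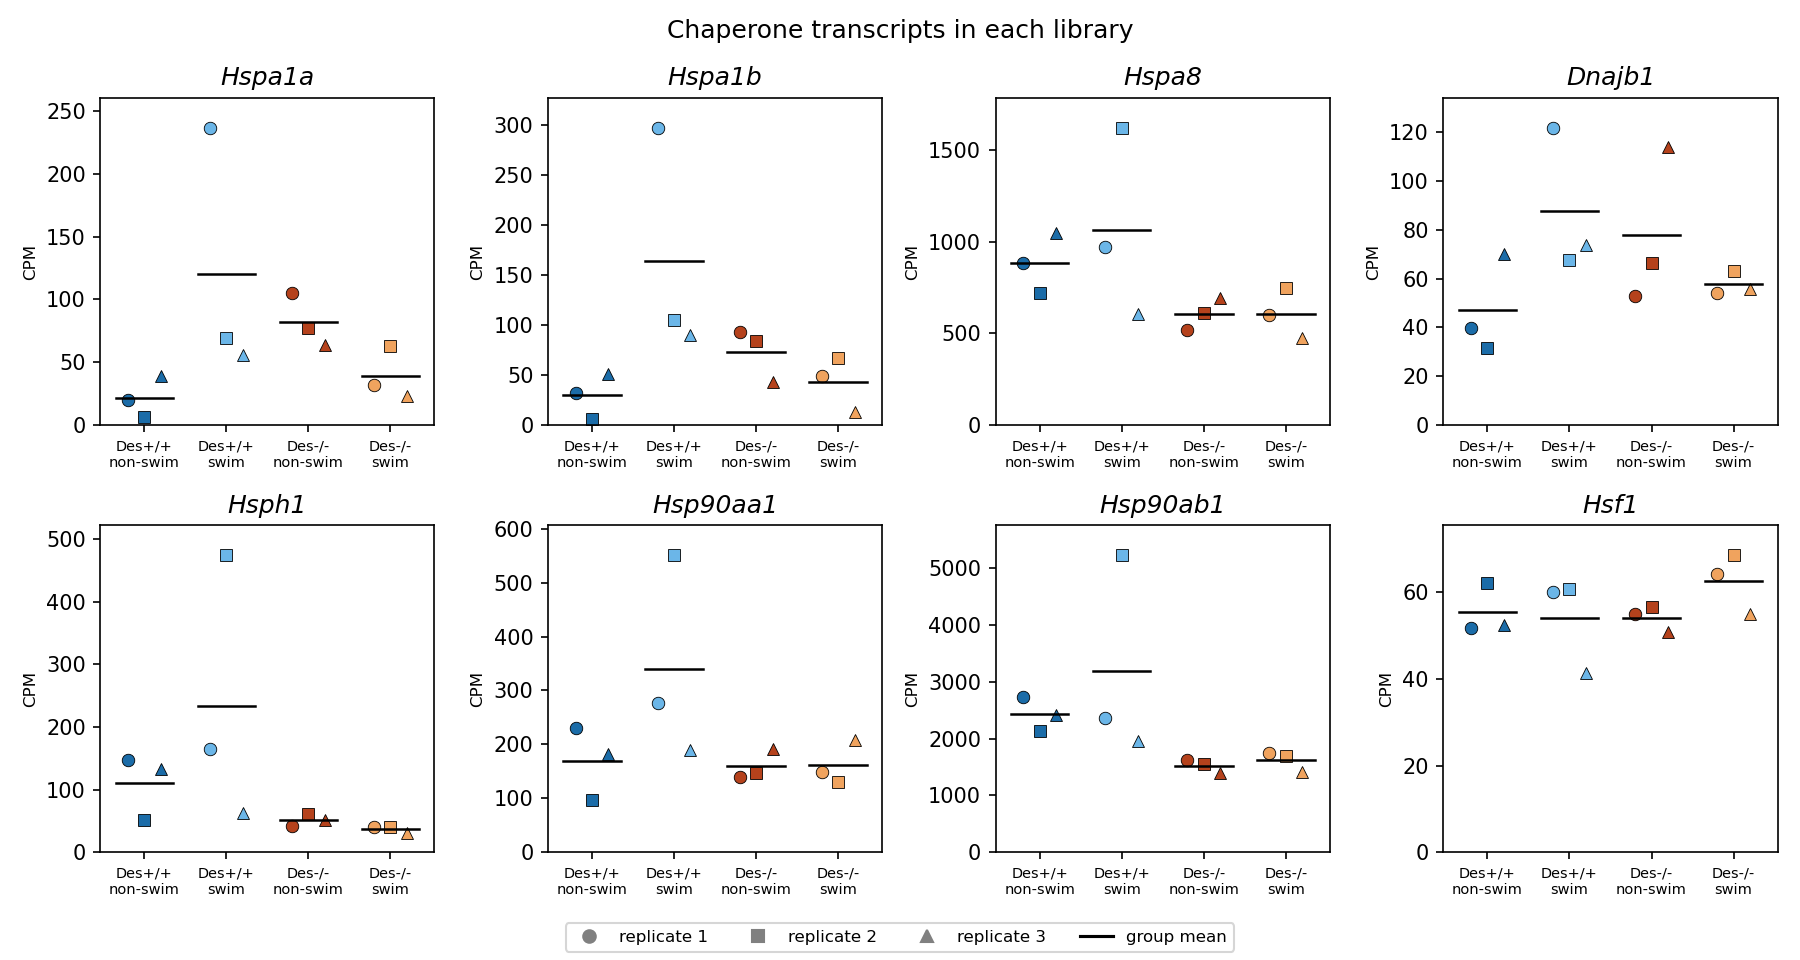
Level of each of the 8 genes in each library, in CPM on a linear axis from 0, with 1 panel per gene and a black line at the mean of each group of 3; circles, squares and triangles are replicates 1, 2 and 3. Replicate 1 of Des+/+ swim was the highest library for Hspa1a (236.6 CPM) and replicate 2 of the same group for Hsph1 (474.9 CPM), while Hsf1 stayed between 41.27 and 68.67 CPM.

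Inducible Hsp70 showed the widest range. Hspa1a was measured at 19.68, 6.194 and 39.16 CPM in Des+/+ non-swim, at 236.6, 69.55 and 55.36 CPM in Des+/+ swim, at 105, 77.57 and 63.85 CPM in Des-/- non-swim and at 32.14, 63.2 and 22.94 CPM in Des-/- swim (replicates 1, 2 and 3). The lowest group was thus the unstressed Des+/+ one, and both the swum Des+/+ and the resting Des-/- libraries lay above it without overlap. Hspa1b was measured at 32.53, 5.61 and 51.25 CPM in Des+/+ non-swim, at 297.1, 104.5 and 89.94 CPM in Des+/+ swim, at 93.22, 84.36 and 42.86 CPM in Des-/- non-swim and at 49.06, 66.92 and 13.09 CPM in Des-/- swim. Its order of groups was the same as that of Hspa1a, but the resting Des-/- libraries overlapped with the resting Des+/+ ones. Among neighbours in the order of group means, the ranges of Hspa1a overlapped between Des+/+ swim and Des-/- non-swim and between Des-/- swim and Des+/+ non-swim, and the lowest Des-/- non-swim library lay just above the highest Des-/- swim one (63.85 against 63.2 CPM). For Hspa1b all neighbouring groups overlapped.

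Among the co-chaperones of Hsp70, Dnajb1, the J-domain protein that HSF1 induces with it, was measured at 39.84, 31.67 and 70.11 CPM in Des+/+ non-swim, at 121.8, 67.52 and 73.86 CPM in Des+/+ swim, at 52.93, 66.59 and 113.9 CPM in Des-/- non-swim and at 54.03, 63.2 and 55.58 CPM in Des-/- swim. Its means followed the same order as those of the Hsp70 pair, and every neighbouring pair of groups overlapped. Hsph1, the exchange factor, was measured at 147.8, 50.6 and 133.3 CPM in Des+/+ non-swim, at 164.9, 474.9 and 62.19 CPM in Des+/+ swim, at 42.41, 60.24 and 50.99 CPM in Des-/- non-swim and at 40.67, 39.37 and 30.79 CPM in Des-/- swim. Here the Des-/- libraries were low in both conditions and close to each other, though resting Des+/+ replicate 2 (50.6 CPM) lay within their range, and the wide spread was in Des+/+. The constitutive Hspa8 was measured at 882.3, 717.9 and 1045 CPM in Des+/+ non-swim, at 970, 1621 and 606.8 CPM in Des+/+ swim, at 516.3, 609.7 and 692.5 CPM in Des-/- non-swim and at 602.1, 745.3 and 477.2 CPM in Des-/- swim, so that its resting Des-/- libraries all lay below the resting Des+/+ ones.

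Of the Hsp90 pair, Hsp90ab1 was measured at 2736, 2129 and 2413 CPM in Des+/+ non-swim, at 2360, 5241 and 1957 CPM in Des+/+ swim, at 1619, 1557 and 1386 CPM in Des-/- non-swim and at 1741, 1701 and 1412 CPM in Des-/- swim. All 6 Des-/- libraries lay below all 6 Des+/+ ones. The genotypes did not overlap in 47.9% of all genes tested without swimming and in 35.9% after it, and the share for both conditions at once was not counted. Hsp90aa1 was measured at 230.1, 95.83 and 182.6 CPM in Des+/+ non-swim, at 275.9, 551.7 and 189 CPM in Des+/+ swim, at 138.9, 147.7 and 191.1 CPM in Des-/- non-swim and at 148.5, 129.9 and 208.1 CPM in Des-/- swim, with both Des-/- groups inside the range of resting Des+/+. Hsf1, whose protein is regulated after translation, varied least, with group means of 55.51 ± 5.777, 54.02 ± 11.04, 54.14 ± 3.052 and 62.63 ± 7.001 CPM in the same order of groups (SD, n = 3), and all its groups overlapped.

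Without swimming, the comparison of Des-/- with Des+/+ asks whether loss of desmin alone changes the chaperones of unexercised hearts. Hspa1a rose 3.761-fold (log2 change 1.91, SE 0.67, adjusted p = 0.0469, edgeR quasi-likelihood test with Benjamini-Hochberg adjustment over all genes tested) and was the 1 member of 8 to pass, where 32.0% of all genes tested passed, 14.0% higher and 18.0% lower. It was also the only member with an unadjusted p under 0.05, a limit that 43.7% of all genes were under. Its partner Hspa1b had a log2 change of 1.29 (SE 0.74, adjusted p = 0.201) and Dnajb1 of 0.72 (SE 0.34, adjusted p = 0.128). The log2 changes of Hsph1 (-1.11, SE 0.58, adjusted p = 0.165), Hsp90ab1 (-0.67, SE 0.32, adjusted p = 0.132) and Hspa8 (-0.54, SE 0.32, adjusted p = 0.211) were negative. Hsp90aa1 (-0.09, SE 0.39) and Hsf1 (-0.04, SE 0.16) had adjusted p-values of 0.881 and 0.882. The libraries of 3 members, Hspa1a, Hspa8 and Hsp90ab1, did not overlap between the genotypes, against 47.9% of all genes tested.

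The call for Hspa1a was not firm. It was lost when Hspa1a and Hspa1b were summed to 1 feature (log2 change 1.59, adjusted p = 0.0995), and in 7 of the 12 fits that left out a library, among them that without Des+/+ non-swim replicate 2 (1.47, adjusted p = 0.131), while without replicate 3 of that group the log2 change was 2.66 (adjusted p = 0.0291). Other markers moved with this comparison: of 20 genes known to respond to enzymatic cell isolation, 15 rose and none fell, their sum being 2567 to 4114 CPM in Des+/+ non-swim and 6514 to 13010 CPM in Des-/- non-swim. All 10 cardiomyocyte markers fell, 9 of 10 fibroblast markers rose (sum 6260 to 7578 against 12850 to 43320 CPM) and 8 of 10 macrophage markers rose (sum 224.2 to 343.6 against 422.2 to 4429 CPM). Of 6 erythrocyte markers tested 5 rose (sum 179.5 to 547.2 against 1471 to 4586 CPM), and like Hspa1a they were lowest in Des+/+ non-swim. The part of these shifts in the level of Hspa1a was not tested.

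After swimming, the same comparison of genotypes asks how the exercised hearts differed, and here 7 of the 8 members had a negative log2 change. Hsph1 fell 6.341-fold in Des-/- (log2 change -2.66, SE 0.61, adjusted p = 0.0238 by edgeR) and was the 1 member of 8 to pass, against 10.6% of all genes tested, 5.01% higher and 5.57% lower. The log2 changes were -1.94 (SE 0.75, adjusted p = 0.111) for Hspa1b, -1.62 (SE 0.66, adjusted p = 0.124) for Hspa1a and -0.61 (SE 0.34, adjusted p = 0.251) for Dnajb1. For Hsp90aa1, Hsp90ab1 and Hspa8 they were -1.06 (SE 0.39), -0.98 (SE 0.33) and -0.81 (SE 0.32), with adjusted p-values of 0.0964, 0.0733 and 0.113 by edgeR. Hsf1 had a log2 change of 0.21 (SE 0.16, adjusted p = 0.393). At an unadjusted p under 0.05 there were 6 of the 8 members, all of them lower, where 30.5% of all genes were under that limit, and the median log2 change of the members was -1.02 against 0.02 over all genes tested. The libraries of 4 members, Hspa1b, Dnajb1, Hsph1 and Hsp90ab1, did not overlap, against 35.9% of all genes.

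These differences depended on single libraries of Des+/+ swim. Without replicate 1 the log2 change of Hspa1a was -0.68 (adjusted p = 0.493) and that of Hspa1b -1.19 (adjusted p = 0.34). Without replicate 2 the log2 change of Hsph1 was -1.62 (adjusted p = 0.0603) and that of Hsp90ab1 -0.42 (adjusted p = 0.241), and the call for Hsph1 was also lost without any 1 of the Des-/- swim libraries (adjusted p = 0.0632 to 0.0671), each of which left a group of 2. Beside these values, 8 of the 20 isolation-response genes were higher in Des-/- swim (sum 5340 to 10470 against 3321 to 3907 CPM). There, 1 of 10 cardiomyocyte markers was lower and 1 of 10 fibroblast markers higher, and no macrophage marker passed. The median log2 changes of these cell-type lists were -0.8, 0.92 and 1.17. Summed cardiomyocyte markers were lower in Des-/- swim without overlap (15870 to 26860 against 32870 to 53780 CPM). Summed fibroblast markers were higher in Des-/- swim without overlap, while macrophage sums overlapped. The share of uniquely aligned reads outside genes was also higher in Des-/- swim, at 57.18% to 64.52% against 45.87% to 50.39%. The part of these shifts was not tested.

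**Figure D2:**
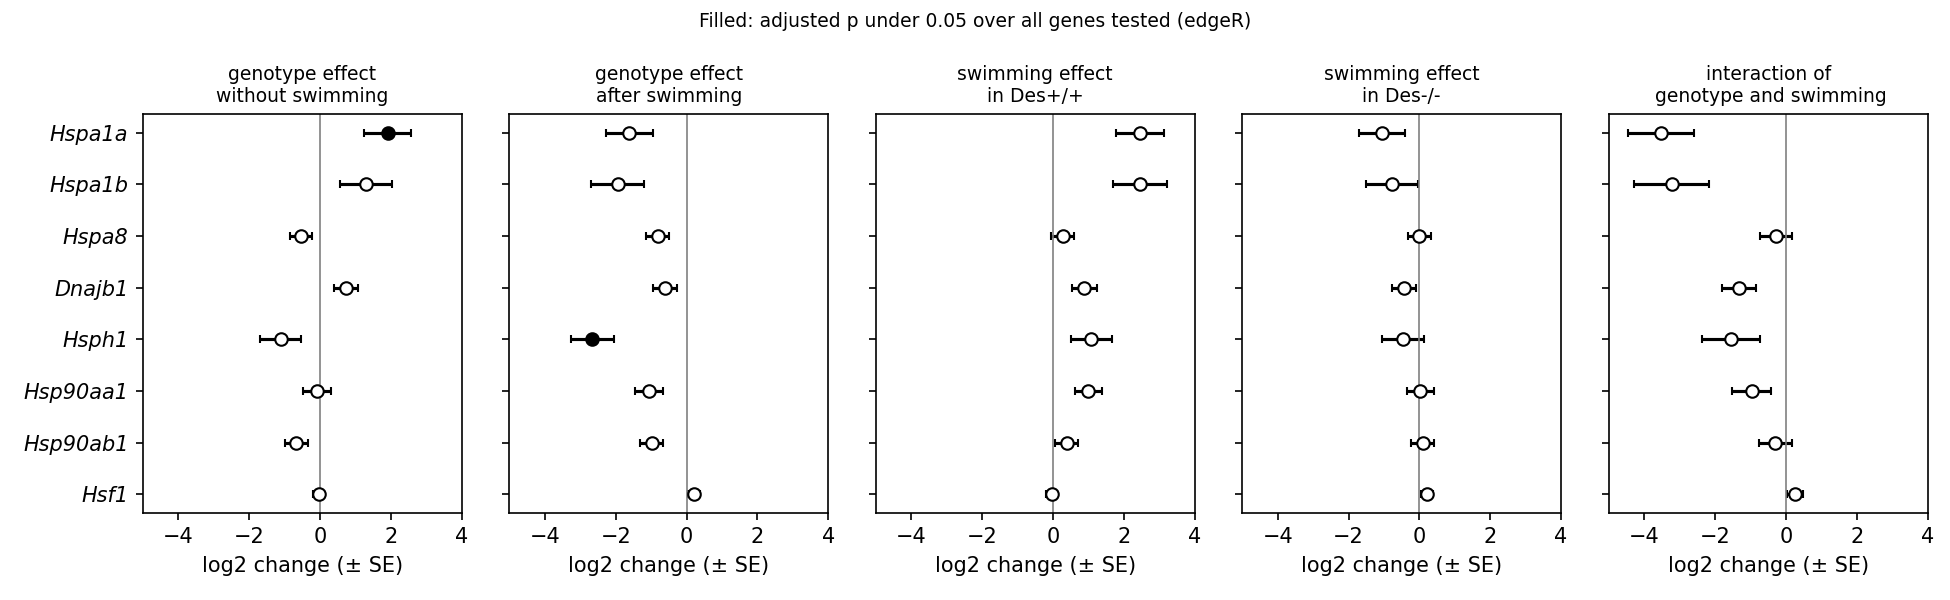
Log2 change of each of the 8 genes in the 5 comparisons, with bars of 1 standard error; a positive value means higher in Des-/- or higher after swimming, and the last panel gives the change with swimming in Des-/- minus that in Des+/+. Filled points passed an adjusted p of 0.05, which was reached by Hspa1a without swimming (1.91) and by Hsph1 after swimming (-2.66).

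The effect of swimming was asked within each genotype. In Des+/+ hearts no member passed the adjusted test by edgeR, which 0.0912% of all genes passed. An unadjusted p under 0.05 was reached by 4 of the 8, Hspa1a, Hspa1b, Dnajb1 and Hsp90aa1, against 20.5% of all genes. DESeq2 called 2 of them, Hspa1a and Hspa1b, but it also called far more genes than edgeR, 798 of the 13158 tested. The log2 change was 2.46 for Hspa1a (5.521-fold, SE 0.68, adjusted p = 0.109 by edgeR) and 2.45 for Hspa1b (5.475-fold, SE 0.76, adjusted p = 0.128). Dnajb1 (0.89, SE 0.34) and Hsp90aa1 (1, SE 0.39) had adjusted p-values of 0.182 and 0.188. Hsph1 (1.08, SE 0.58), Hsp90ab1 (0.39, SE 0.32), Hspa8 (0.27, SE 0.32) and Hsf1 (-0.04, SE 0.16) had unadjusted p-values above that limit. Without Des+/+ swim replicate 2 the log2 change of Hsph1 was 0.04 (adjusted p = 0.981). Only for Hspa1a and Hspa1b did all swum libraries lie above all resting ones, a separation seen in 31.3% of all genes. DESeq2 gave these a log2 change of 2.48 (adjusted p = 0.00408) and 2.47 (adjusted p = 0.0479). Without replicate 1 of Des+/+ swim, in which both were highest, the log2 change of Hspa1a by edgeR was 1.52 (adjusted p = 0.213). Erythrocyte markers were higher in the same direction, with a summed level of 179.5 to 547.2 CPM in resting and 1394 to 2180 CPM in swum Des+/+ libraries, though none of the 6 tested passed. The share of uniquely aligned reads outside genes was 33.97% to 39.34% in resting and 45.87% to 50.39% in swum Des+/+ libraries. Cardiomyocyte markers summed to 68620 to 101500 CPM in resting and 32870 to 53780 CPM in swum Des+/+ libraries, though none of the 10 passed. The part of these shifts was not tested. The isolation-response genes, in contrast, summed to 2567 to 4114 CPM in resting and 3321 to 3907 CPM in swum Des+/+ libraries.

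In Des-/- hearts no member passed by edgeR and none had an unadjusted p under 0.05, where 0.0228% of all genes passed and 16.7% were under that limit. DESeq2, which called 339 genes, called none of the members either. The log2 change with swimming was -1.07 for Hspa1a (SE 0.65, adjusted p = 0.415 by edgeR), -0.78 for Hspa1b (SE 0.74, adjusted p = 0.609), -0.44 for Dnajb1 (adjusted p = 0.53) and -0.47 for Hsph1 (SE 0.59, adjusted p = 0.712). The swum libraries lay below the resting ones without overlap for Hspa1a and Hsph1, though the nearest libraries were close (63.2 against 63.85 CPM and 40.67 against 42.41 CPM), and 19.4% of all genes did not overlap. Hspa8, Hsp90aa1, Hsp90ab1 and Hsf1 had log2 changes between 0 and 0.21. The Des-/- swim libraries had the fewest reads, but with mean counts of 221.3 for Hspa1a and 222 for Hsph1, the lowest of any member there, the counts there were far above the floor of 3. Macrophage, erythrocyte and fibroblast markers had median log2 changes of -1.53, -1.22 and -0.93 with swimming in Des-/-, and cardiomyocyte markers of 0.45. None of these markers passed, and their part was not tested.

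The difference between both swimming effects was tested as an interaction. Its log2 value was -3.53 for Hspa1a (SE 0.94, adjusted p = 0.199 by edgeR), -3.23 for Hspa1b (SE 1.05, adjusted p = 0.21) and -1.33 for Dnajb1 (SE 0.48, adjusted p = 0.236). No member and none of the 13158 genes passed the adjusted test with edgeR, and 3 of the 8 members had an unadjusted p under 0.05, against 16.3% of all genes. With DESeq2, which called 299 of the 13158 genes, Hspa1a passed (-3.52, adjusted p = 0.0115) and was the 1 member to do so. Hsph1 (-1.55, SE 0.82), Hsp90aa1 (-0.97), Hsp90ab1 (-0.3), Hspa8 (-0.27) and Hsf1 (0.25) had adjusted p-values from 0.359 to 0.785. Erythrocyte markers had a median interaction of -3.54 and cardiomyocyte markers of 1.29, with 0 of 6 and 0 of 10 passing, and their part was not tested.

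Within the 8 genes, the libraries did not rise and fall as 1 block. Replicate 1 of Des+/+ swim was the highest of the 12 for Hspa1a, Hspa1b and Dnajb1, but replicate 2 of the same group was the highest for Hspa8, Hsph1, Hsp90aa1 and Hsp90ab1. As a description over the 12 libraries, which share groups and scaling, Pearson's r of log2 CPM was 0.94 between Hspa1a and Hspa1b and 0.8 between Hspa1a and Dnajb1. It was 0.93 between Hspa8 and Hsph1, 0.93 between Hsph1 and Hsp90ab1 and 0.9 between Hspa8 and Hsp90ab1. Between Hspa1a, Hspa1b or Dnajb1 on one side and Hspa8, Hsph1, Hsp90aa1 or Hsp90ab1 on the other it ranged from -0.08 (Dnajb1 and Hsp90ab1) to 0.46 (Hspa1b and Hsp90aa1), with 0.16 between Hspa1a and Hspa8 and 0.02 between Hspa1a and Hsp90ab1. Hsp90aa1 had 0.81 with Hsph1, 0.72 with Hsp90ab1 and 0.69 with Hspa8. After each group's mean was taken away the values of Hspa1a with Hspa1b and Dnajb1, Hspa8 with Hsph1, Hsph1 with Hsp90ab1, Hspa8 with Hsp90ab1, and Hspa1a with Hspa8 and Hsp90ab1 were 0.93, 0.61, 0.9, 0.88, 0.81, 0.37 and 0.07 in the same order, so the likeness lay between replicates as well as between groups. The value of Hspa1b with Dnajb1 went from 0.71 to 0.44. Pairs across both sides then ranged from -0.25 (Dnajb1 and Hsp90ab1) to 0.42 (Hspa1b and Hsph1). The value of Hspa1b with Dnajb1 was thus hardly above the highest of these, while pairs among Hspa8, Hsph1, Hsp90aa1 and Hsp90ab1 had 0.66 or more. Hsf1 reached at most 0.19 with any member before the group means were taken away. Afterwards it had 0.6 with Hspa8, 0.53 with Hsp90ab1 and 0.46 with Hsph1, and between -0.09 and 0.23 with the other members.

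**Figure D3:**
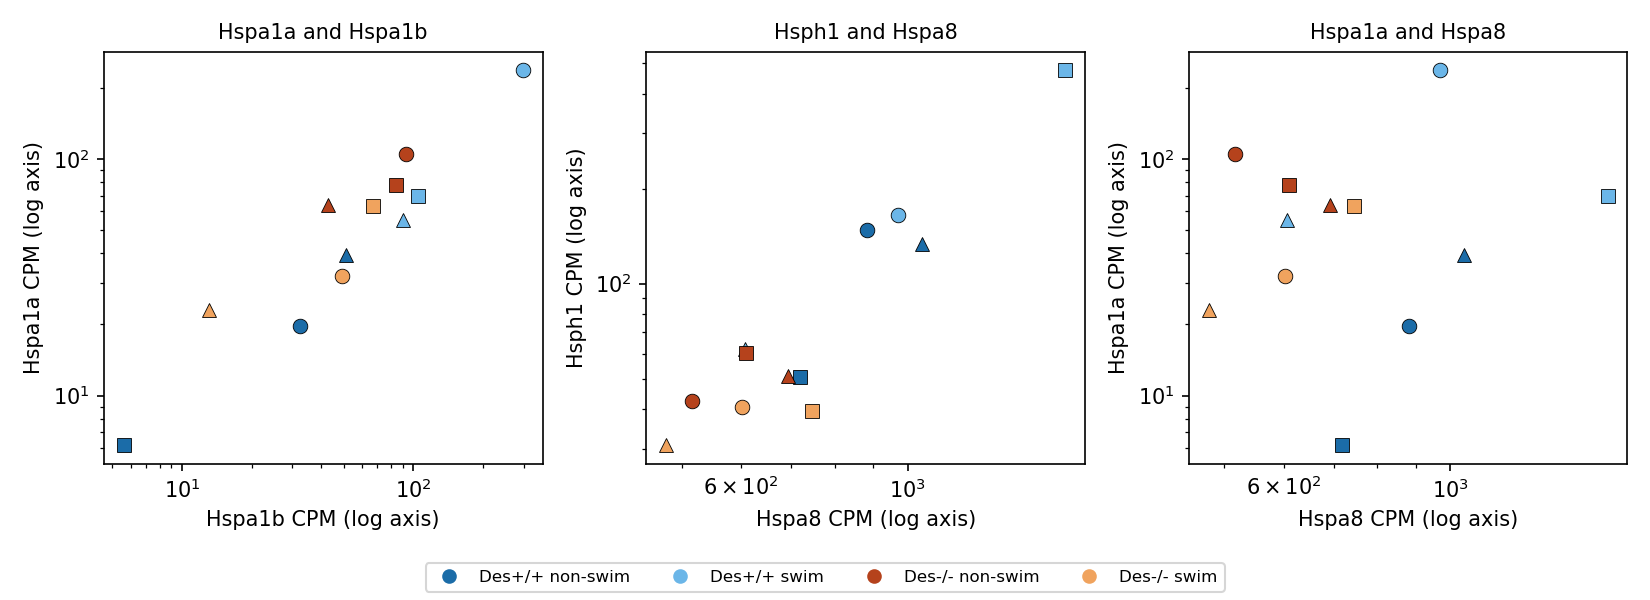
Levels of 3 pairs of genes in the 12 libraries, in CPM on log axes on both sides, with 1 point per library, colours for the 4 groups and circles, squares and triangles for replicates 1, 2 and 3. Hspa1a followed Hspa1b (r = 0.94) and Hsph1 followed Hspa8 (r = 0.93), whereas Hspa1a and Hspa8 had r = 0.16.

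Other members left out, the genes most like each member over the 12 libraries, among the 12150 genes whose counts averaged 20 or more, were in part chaperones. Hsp90ab1 was most like Hspe1 (r = 0.97), the mitochondrial co-chaperonin, and Stip1 (0.96), the adaptor between Hsp70 and Hsp90. Hspa8 was most like Ahsa2 (0.94), a relative of the Hsp90 ATPase activator, and Cct7 (0.93), a subunit of the cytosolic chaperonin, and Hsph1 was most like Epc2 (0.96) and Ahsa2 (0.95). For Hspa1a, Hspa1b and Dnajb1 the nearest genes outside the members were not chaperones: Lpcat4 (0.91) and Calhm2 (0.87) for Hspa1a, Ddx17 and Ksr1 (both 0.9) for Hspa1b, and Nfatc1 (0.91), a calcineurin-regulated transcription factor, and Txn1 (0.83), thioredoxin, for Dnajb1. Hsp90aa1 was most like Zfp236 and Pak2 (both 0.91) and Hsf1 most like Slx1b (0.93) and Mark2 (0.89). These are the highest of many values, and no test was made of them.

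Around the members, 84 further genes of the chaperone network were listed by role, 83 of which are in the files and 81 were tested; Cct6a was not analysed here, and Hsf5 and Hsf2bp were too low to test. Without swimming 28 of the 81 passed, 26 lower and 2 higher in Des-/- (34.6%, against 32.0% of all genes), with a median log2 change of -0.33 against 0.04. After swimming 17 passed, 16 lower and 1 higher (21.0%, against 10.6%), with a median of -0.36 against 0.02. The count after swimming fell to 3 without Des+/+ swim replicate 3, to 5, 7 and 9 without Des-/- swim replicates 2, 1 and 3 and to 9 and 10 without Des+/+ swim replicates 2 and 1. The count over all genes fell in the same fits, from 1392 to 74, to 637, 505 and 664 and to 817 and 561.

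Several of the named genes that fell encode mitochondrial chaperones. Hspa9, the mitochondrial Hsp70, fell from a mean of 918.8 to 303.8 CPM without swimming (log2 change -1.6) and was at 587.7 against 291.8 CPM after it (-1.01). The chaperonin Hspd1 (Hsp60) fell by 1.5 and 1.44 on the log2 scale without and after swimming, and its lid Hspe1 (Hsp10) by 0.92 and 1.11. The J-domain protein Dnaja3, partner of Hspa9, fell by 1.42 and 1.04, while the mitochondrial Hsp90 Trap1 (-0.98) and the exchange factor Grpel1 (-0.99) passed without swimming. Cytosolic genes also fell: Dnaja2 (-1.19) and the exchange factors Bag1 (-0.65) and Hspa4 (-0.44) without swimming, and Dnajb4 (-1.31) and Hspa4 (-0.46) after it. By role, 8 of 20 J-domain proteins, 3 of 10 other Hsp70 family genes, 4 of 11 exchange factors and co-chaperones, 5 of 20 Hsp90 co-chaperones (with Cdc37l1 at -1.38 and Ppp5c at -0.66) and 4 of 9 chaperonins were lower without swimming, and none of these was higher. After swimming the counts were 7, 2, 0, 4 and 3, again with none higher, and they included Cdc37l1 (-1.17) and the import receptor Tomm70a (-0.71). Of all genes tested, 18.0% were called lower and 14.0% higher without swimming, and 5.57% lower and 5.01% higher after it. The cardiomyocyte markers had a median log2 change of -2.13 without swimming, where all 10 fell, and of -0.8 after it, where 1 of 10 did, and their part was not tested.

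The 2 network genes that rose in Des-/- without swimming were stress genes that HSF1 among other factors can induce. Hmox1, heme oxygenase, went from 18.24 to 86.71 CPM (log2 change 2.25) and Gadd45b, a stress-response regulator, from 14.7 to 61.9 CPM (2.08). The Des-/- libraries spread from 17.21 to 223.5 CPM for Hmox1, which overlapped with Des+/+ (16.48 to 20.39 CPM), and from 27.1 to 128.5 CPM for Gadd45b, which did not. No network gene was called higher without Des-/- non-swim replicate 3 or without Des+/+ non-swim replicate 1. Of the heat shock factors and their regulators, Hsbp1, which binds the HSF1 trimer, was lower without swimming (-0.38) and none passed after it. For swimming in Des+/+, swimming in Des-/- and the interaction, 0 of the 81 passed by edgeR, against 0.0912%, 0.0228% and 0% of all genes. At an unadjusted p under 0.05 there were 9, 8 and 6 of the 81, against 20.5%, 16.7% and 16.3% of all genes. DESeq2 called 2, 1 and 1 of them, where it called 798, 339 and 299 genes in all.

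**Figure D4:**
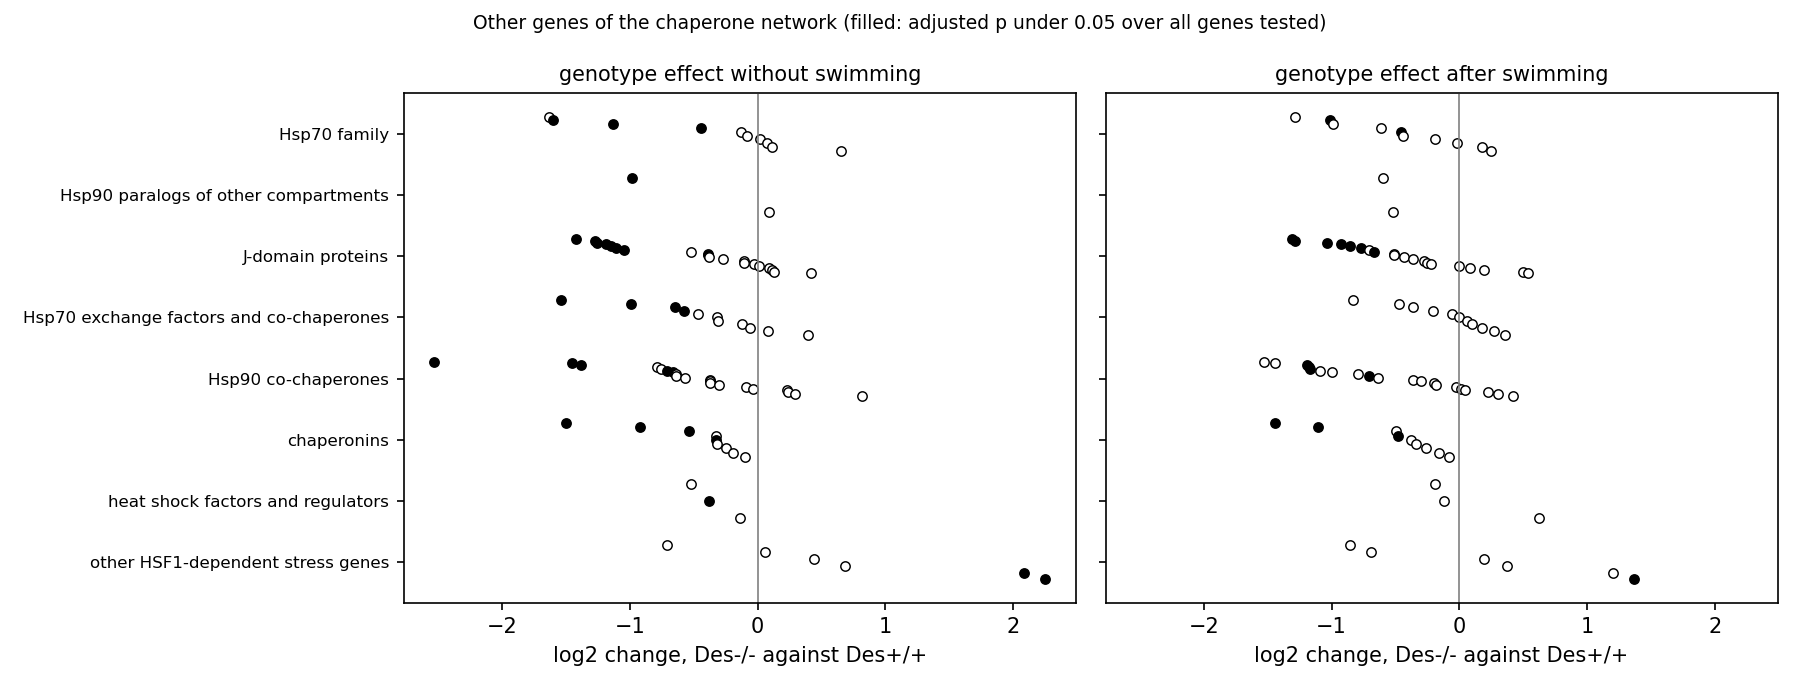
Log2 change in Des-/- against Des+/+ of each of the 81 tested genes of the wider chaperone network, without swimming (left) and after swimming (right), in rows by role; height within a row only separates the points. Filled points passed an adjusted p of 0.05 (28 and 17 genes), and nearly all of them lie left of 0.

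In Des+/+ hearts the network gene with the smallest p for swimming among the Hsp90 co-chaperones was Fkbp5, an immunophilin that binds Hsp90 with steroid receptors and is a known target of the glucocorticoid receptor. It was measured at 28.4, 20.57 and 52.24 CPM in resting and at 319, 140.9 and 523.1 CPM in swum Des+/+ libraries. The log2 change was 3.27 (SE 0.77, adjusted p = 0.0831 by edgeR), and all swum libraries lay above the resting ones. In Des-/- hearts it was at 38.69, 50.51 and 89.74 CPM at rest and at 44.65, 68.23 and 346.7 CPM after swimming, where the groups overlapped (log2 change 1.36, SE 0.72, adjusted p = 0.355), and the interaction was -1.91 (SE 1.01, adjusted p = 0.359). In other roles the smallest p for swimming belonged to Hspa9 (-0.64), Trap1 (-0.57), Dnaja2 (-0.36), Bag1 (-0.27), Tcp1 (-0.29), Hsf2 (-0.6) and Chac1 (-0.56) in Des+/+, none of which passed. In Des-/- it belonged to Hspa13 (-0.77), Hsp90b1 (-0.48), Dnajc7 (0.31), Bag1 (0.44), Unc45a (0.28), Cct8 (-0.25), Hsf4 (0.55) and Hmox1 (-1.8), and again none passed.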

How the data were processed

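The authors aligned single-end reads of 100 bases to the mouse genome GRCm38 and counted them per gene. The sample notes name HISAT2 2.2.1, SAMtools 1.13, HTSeq (reverse-strand mode) and DESeq2 1.40.2. The deposited values are raw counts, not normalised, in which a read that aligned to more than 1 place is not counted. The labels name an unstranded kit and the methods a directional one.

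All 12 libraries were fitted together in edgeR 4.0.16 (R 4.3.3, limma 3.58.1) with a quasi-likelihood test on 4 group means, TMM scaling and the default filter of filterByExpr. Contrasts for genotype, swimming and their interaction were adjusted by Benjamini-Hochberg over 13158 genes, and calls were made at 0.05 after adjustment. The standard error is the log2 change divided by the root of F. Log2 CPM used a prior count of 2. No p was adjusted over the members alone. The fit was tested on simulated data. Alternatives were DESeq2 1.42.0, other scalings and filters, a replicate block, fewer libraries, the study's filter (unadjusted p of at most 0.05, log2 change of at least 0.6, mean count of at least 20) and Hspa1a summed with Hspa1b.

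Members and lists were chosen with earlier results of these data known. Every member is given in every comparison. Network genes are counted by role, and up to 2 called genes per role and direction with the smallest p are named for genotype, and 1 per role otherwise; 1 gene so chosen is not reported here. Like-numbered libraries deviated together (r over 0.1 in all 3 pairs) only between the Des-/- groups (0.36, 0.32 and 0.6). The replicate block was fitted over all 12 libraries at once, where it called no member for swimming in Des-/-. A block within the Des-/- groups alone was not fitted. No pair of replicates agreed within sampling noise. Transcript windows came from GENCODE M21 and promoters from RefSeq, both on GRCm38. Floors cover counting error only.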

Additional observations from a re-analysis of the deposited data

Results flagged for a closer look

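The interaction of Hspa1a was singled out because its libraries moved in opposite directions with swimming. All 3 swum libraries lay above the resting ones in Des+/+ and all 3 lay below them in Des-/-. Swum and resting libraries did not overlap, in either direction, in 31.3% of all genes tested in Des+/+ and in 19.4% in Des-/-. The share of genes that separated in opposite directions was not counted. The log2 value was -3.53 (adjusted p = 0.199 by edgeR), so it did not pass over all genes. With DESeq2, which called 299 genes for the interaction where edgeR called 0, the adjusted p was 0.0115. Leaving out 1 library at a time gave -4.29 to -2.59 (adjusted p = 0.115 to 0.442), and Hspa1a summed with Hspa1b gave -3.38 (adjusted p = 0.199). In Des-/- the separation rests on 63.2 against 63.85 CPM.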

How the results depend on the processing

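Each group held 3 pools, and Des-/- swim was the shallowest. Of 282 log2 changes of members under other settings 267 kept their direction and side of the threshold, as did 453 of 480 with 1 library left out. DESeq2 called 3 members after swimming (2332 genes in all and 28 of the network; Hsp90aa1 at -1.06, adjusted p = 0.0433, and Hsp90ab1 at -0.97, adjusted p = 0.0175, joined Hsph1), 2 for swimming in Des+/+ (798 genes), none in Des-/- (339 genes) and 1 for the interaction (299 genes). The study's filter passed 6 members after swimming (2313 genes), 4 for swimming in Des+/+ (1358), none in Des-/- (1132 genes) and 3 for the interaction (1722). edgeR's 12 genes for swimming in Des+/+ became 54 with DESeq2 size factors, 58 with no filter and 282 with only 6 libraries, and its 3 genes in Des-/- became 7 with no filter and 0 with only 6 libraries. With the replicate block, where the numbers do not pair, Hspa1a without swimming was at 1.87 (adjusted p = 0.0675), leaving 0 members, and 19 genes were called for swimming in Des+/+; it changed no other member call. Upper-quartile scaling moved the median of all genes by 0.1 and 0.09 for genotype without and after swimming, and the share of called genes that were higher from 43.7% to 55.1% and from 47.3% to 67.5%; for swimming in Des+/+ DESeq2 size factors gave 87% in place of 100%. Values near 0 changed sign: Hsp90aa1 (0) and Hsf1 (0.07) without swimming under upper-quartile scaling, Hsf1 with no filter (0.03, and 0.01 for swimming in Des+/+) and with 6 libraries (0.04), and Hspa8 for swimming in Des-/- with no filter (-0.01), a mean count of at least 20 (0) and the block (-0.02). With 1 library left out, members called were 0 to 2 without swimming (Dnajb1 joined at 1.12, adjusted p = 0.0399, without Des+/+ non-swim replicate 3, and Hsp90ab1 passed, adjusted p = 0.0253, in 1 fit), 0 to 1 after swimming and 0 elsewhere, and all genes called were 2612 to 4590, 74 to 2142, 0 to 155, 0 to 51 and 0. Signs then changed for Hsp90aa1 (-0.38 to 0.19) and Hsf1 (-0.09 to 0.05) without swimming, for Hspa8 (-0.16 to 0.55), Hsp90ab1 (-0.17 to 0.65) and Hsf1 (-0.13 to 0.12) with swimming in Des+/+, for Hspa8 (-0.17 to 0.15) and Hsp90aa1 (-0.19 to 0.18) in Des-/-, and for Hspa8 (-0.55 to 0.17) and Hsp90ab1 (-0.56 to 0.26) in the interaction. The cause of these changes was not tested.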
